A study of Mus musculus with 14 samples.

Results

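Endothelial and endocardial marker genes were described in hearts of mouse embryos that differed in their copies of Irx3 and Irx5. Both genes lie in 1 Iroquois gene cluster and encode homeodomain factors that bind DNA. The set was a written list of 36 genes, chosen by name with earlier results of these data known. All 36 were found among the 19931 genes of the arrays, each with 1 probe set that carried a single gene symbol. For the account below the genes were parted into 4 endocardial markers (Nfatc1, Tmem100, Emcn and Plvap), 3 lymphatic markers (Flt4, Mmrn1 and Stab1) and 29 vascular and pan-endothelial markers. This parting follows common use, and Emcn, Plvap, Flt4 and Stab1 are also found in other endothelial cells.

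The study hybridised total RNA of whole-tissue heart samples at E12.5, the embryonic day, to 14 Affymetrix Mouse Gene 1.0 ST arrays. The groups were Irx5+/- (3 arrays, with 1 Irx5 copy and no labelled change in Irx3), Irx3-/-;Irx5+/- with no Irx3 (4 arrays), Irx5-/- with no Irx5 (3 arrays) and the double mutant Irx3-/-;Irx5-/- (4 arrays). Every group lacked at least 1 Irx5 copy, so the comparison group was Irx5+/- and no wild-type heart was among the arrays. The labels name no Cre driver, do not say what part of either gene was deleted, and do not state if arrays of a group came from different embryos. The p-values therefore measure the spread between these samples, which may be technical.

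Endothelial cells line the blood and lymph vessels, and the endocardium is the endothelium of the heart's chambers. In the midgestation heart the endocardium signals to the trabeculating muscle, part of it turns into the mesenchyme of the valve cushions, and it contributes to the coronary vessels. VEGF receptors, the Tie receptors and their angiopoietin ligands steer the growth and the stability of this layer, cadherin and immunoglobulin-type proteins hold its junctions together, and ETS and SoxF transcription factors drive much of its gene expression. RNA from whole hearts cannot tell fewer endothelial cells apart from less RNA of these genes per cell, and this holds for each marker below.

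The arrays were alike in scale, with medians from 7.89 to 7.99 on the log2 scale. The Irx3 signal was 8.43, 8.53 and 8.44 in Irx5+/- arrays, 7.87, 7.89, 7.93 and 8.17 in Irx3-/-;Irx5+/- arrays, 8.25, 8.14 and 8.19 in Irx5-/- arrays and 7.86, 7.69, 7.75 and 7.598 in double mutants. The Irx5 signal was 7.86, 8.34 and 7.91 in Irx5-/- arrays and 8.196, 8.43, 7.52 and 8.04 in double mutants, against 8.19, 8.41 and 8.37 in Irx5+/- arrays, and so overlapped between arrays labelled with and without Irx5. Irx3 in double mutants against Irx5+/-, at -0.74 ± 0.10 (SE), was the one called comparison of either gene (adjusted p = 0.0201 in limma). Genotype names below are those of the labels. For Irx3-/-;Irx5+/- replicate 4 the title, source and genotype fields name that genotype while the description names Irx5-/-. Its Irx3 signal of 8.17 was the highest of its group and lay within the range of the Irx5-/- arrays, 8.14 to 8.25. Its Irx5 signal of 8.315 lay within the ranges of both the Irx5+/- and the Irx5-/- arrays. The array was kept in its labelled group, and values without it are given for some results below.

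Of the 36 markers, 35 had a mean log2 intensity above 7.52, the 95th percentile of the means of 1188 olfactory and vomeronasal receptor genes, taken as background. Mmrn1, at 5.79, lay below that level. The defining endothelial markers Pecam1, Cdh5, Kdr and Tek were among those above it. Of 10 macrophage genes 4 lay above the same level, and Csf1r, Adgre1, Mrc1, Ptprc, Fcgr1 and Lyz2 lay below it.

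For 16 of the 36 markers, promoter windows of 300 bases (250 before to 50 after the RefSeq start, GRCm38.p6) were available, 18 windows in all. Flt1, Tie1 and Egfl7 are shown because, of the markers with a window that can be shown, they had the smallest p-values for the loss of Irx5. Flt1 encodes a VEGF receptor, Tie1 a receptor of the angiopoietin pathway, and Egfl7 a secreted protein of endothelial cells. The windows lie at chr5:147725962-147726261 on the minus strand for Flt1, chr4:118489800-118490099 on the minus strand for Tie1, and chr2:26580833-26581132 and chr2:26583615-26583914 on the plus strand for 2 of the 3 starts of Egfl7. The third Egfl7 window, chr2:26586386-26586685, held none of the motifs searched and is not shown. They are written 5′ to 3′, and capitals mark CAGGAAG or its reverse complement CTTCCTG, an ETS-type motif.
Flt1: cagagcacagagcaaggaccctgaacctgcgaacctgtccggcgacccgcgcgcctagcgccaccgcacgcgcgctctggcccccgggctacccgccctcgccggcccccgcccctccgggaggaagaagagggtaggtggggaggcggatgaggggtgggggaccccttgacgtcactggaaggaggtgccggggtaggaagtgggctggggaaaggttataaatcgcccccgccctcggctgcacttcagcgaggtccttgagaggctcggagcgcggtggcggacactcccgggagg
Tie1: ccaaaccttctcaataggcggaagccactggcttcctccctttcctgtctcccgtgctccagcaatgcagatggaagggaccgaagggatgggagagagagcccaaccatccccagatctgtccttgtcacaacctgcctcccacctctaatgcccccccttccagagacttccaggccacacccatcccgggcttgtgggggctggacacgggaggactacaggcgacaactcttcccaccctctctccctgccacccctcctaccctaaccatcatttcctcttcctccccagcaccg
Egfl7, first start: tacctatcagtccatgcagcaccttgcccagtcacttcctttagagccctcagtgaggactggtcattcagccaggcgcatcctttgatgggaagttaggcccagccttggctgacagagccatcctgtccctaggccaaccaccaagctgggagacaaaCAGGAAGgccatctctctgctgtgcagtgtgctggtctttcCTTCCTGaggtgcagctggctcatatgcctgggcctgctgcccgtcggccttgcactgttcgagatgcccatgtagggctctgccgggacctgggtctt
Egfl7, second start: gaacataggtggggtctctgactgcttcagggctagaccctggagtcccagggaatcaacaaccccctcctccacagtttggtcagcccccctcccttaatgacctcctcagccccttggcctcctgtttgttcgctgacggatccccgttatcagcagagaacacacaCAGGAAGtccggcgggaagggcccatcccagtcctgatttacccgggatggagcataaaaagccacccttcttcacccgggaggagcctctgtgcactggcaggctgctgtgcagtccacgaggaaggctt

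The first Egfl7 window held the ETS-type motif at -90 and -49 from the start, the second at -81, and the windows of Flt1 and Tie1 held none of the letters searched. Over all marker windows, CAGGAAG on either strand was found in 9 of 18, which belong to Apln, Calcrl, Cd34, Egfl7, Emcn, Rasip1, Robo4 and Stab1, against 13.3% of all 32851 windows. The GATA-type motif AGATAA was found in 1 of 18, that of Tek, against 11.2% of all windows. The Iroquois-type motif ACANNTGT was found in 0 of 18 against 7.4% of all windows. A match describes letters and not a bound site, and nothing follows about a factor from letters that are missing from these windows.

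**Figure D1:**
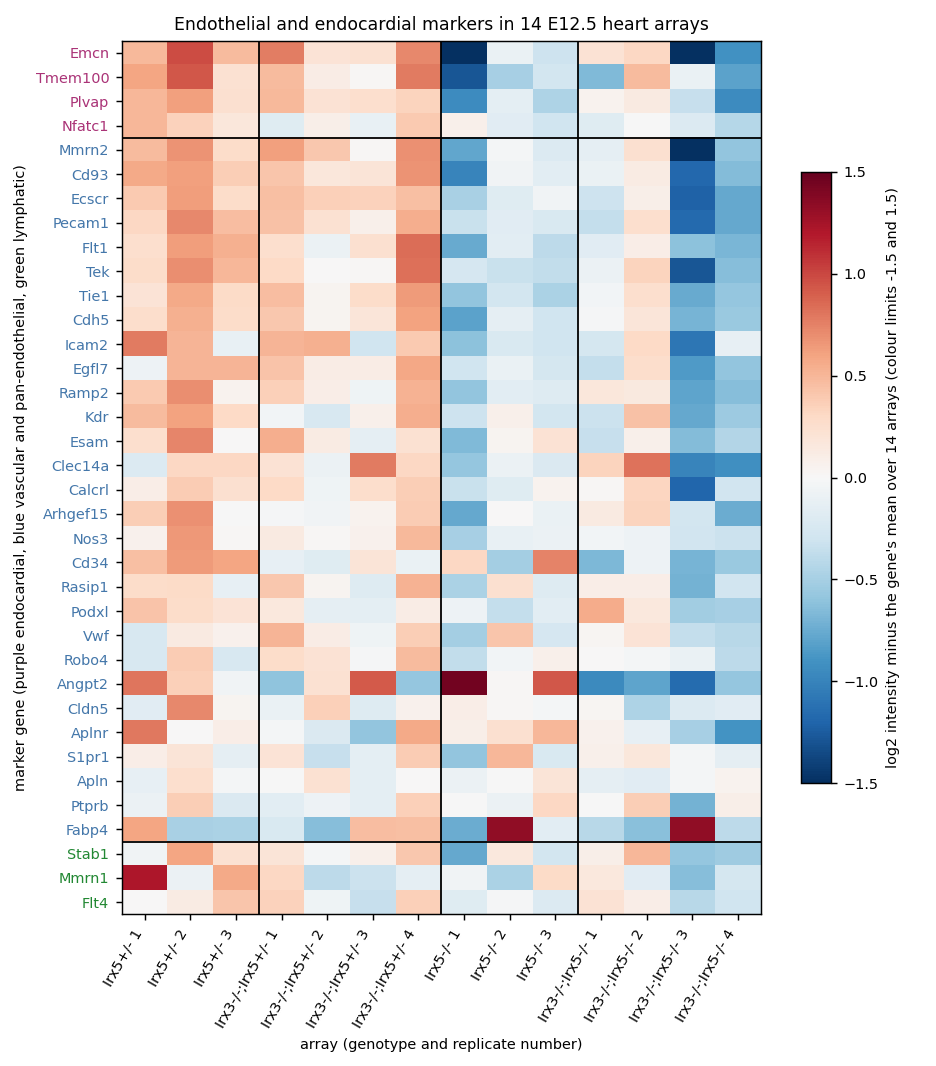
Each row is a marker gene, each column an array, and the colour is the log2 intensity minus the gene's mean over the 14 arrays, with colours limited at -1.5 and 1.5. Most rows are red in the Irx5+/- and Irx3-/-;Irx5+/- columns and blue in the Irx5-/- columns and in Irx3-/-;Irx5-/- replicates 3 and 4. Irx3-/-;Irx5-/- replicate 1 is mixed and replicate 2 is mostly red, with marker means of -0.09 and 0.12 on the same relative scale. Irx3-/-;Irx5-/- replicate 3 is lowest of all arrays for 20 markers and Irx5-/- replicate 1 for 11.

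In hearts labelled as having no Irx5, most of the markers lay lower than in hearts with 1 Irx5 copy, although no single marker passed the threshold of an adjusted p under 0.05. The loss of Irx5, averaged over hearts with and without Irx3, gave a median marker difference of -0.44 on the log2 scale against -0.03 for all genes, and 35 of 36 markers lay below 0. Fabp4 was the exception, at 0.11 ± 0.38 (SE). In that comparison 0 of 36 markers were called, and 0.0151% of all genes were (3 of 19931). At an unadjusted p under 0.05, 22 of 36 markers were lower and 0 higher, where 7.03% of all genes were lower. With any 1 array left out, Irx3-/-;Irx5+/- replicate 4 among them, the median ran from -0.54 to -0.39 and the count of lower markers from 19 to 25. In 4 markers, Ecscr, Plvap, Cd93 and Nos3, every one of the 7 arrays without Irx5 lay below every one of the 7 with it, where 0.236% of all genes were parted in this way.

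Irx5-/- and double mutant hearts were each set against Irx5+/-, and these comparisons share the 3 reference arrays. The median marker difference was -0.52 in Irx5-/- hearts, with 32 of 36 markers below 0, and -0.64 in double mutants, with 35 below 0. In Irx5-/- hearts 0 markers and 0% of all genes were called, 19 markers were lower at an unadjusted p under 0.05 against 4.66% of all genes, and 20 lay wholly below the reference arrays against 9.52% of all genes. In double mutants 0 markers and 0.0201% of all genes were called, 22 markers were lower at that unadjusted level against 5.56% of all genes, and 12 did not overlap against 5.58%.

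The counts of lower markers changed when single arrays were left out. Without Irx5+/- replicate 2 the counts were 9 for Irx5-/- and 14 for double mutants, and without Irx5-/- replicate 1 the first was 8. The medians without Irx5+/- replicate 3, the array with the lowest cardiomyocyte genes, were -0.58 and -0.67.

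When the last Irx5 copy was lost in hearts that already lacked Irx3 (double mutants against Irx3-/-;Irx5+/-), the median marker difference was -0.47 and all 36 markers lay below 0. No marker was called, as against 0.00502% of all genes (1 of 19931). At an unadjusted p under 0.05, 16 markers were lower against 3.61% of all genes, and 4 did not overlap against 2.18%. Without Irx3-/-;Irx5+/- replicate 4, whose description names another genotype, the median was -0.43 and 10 markers were lower. The count was 9 without either of Irx3-/-;Irx5-/- replicates 3 and 4.

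**Figure D2:**
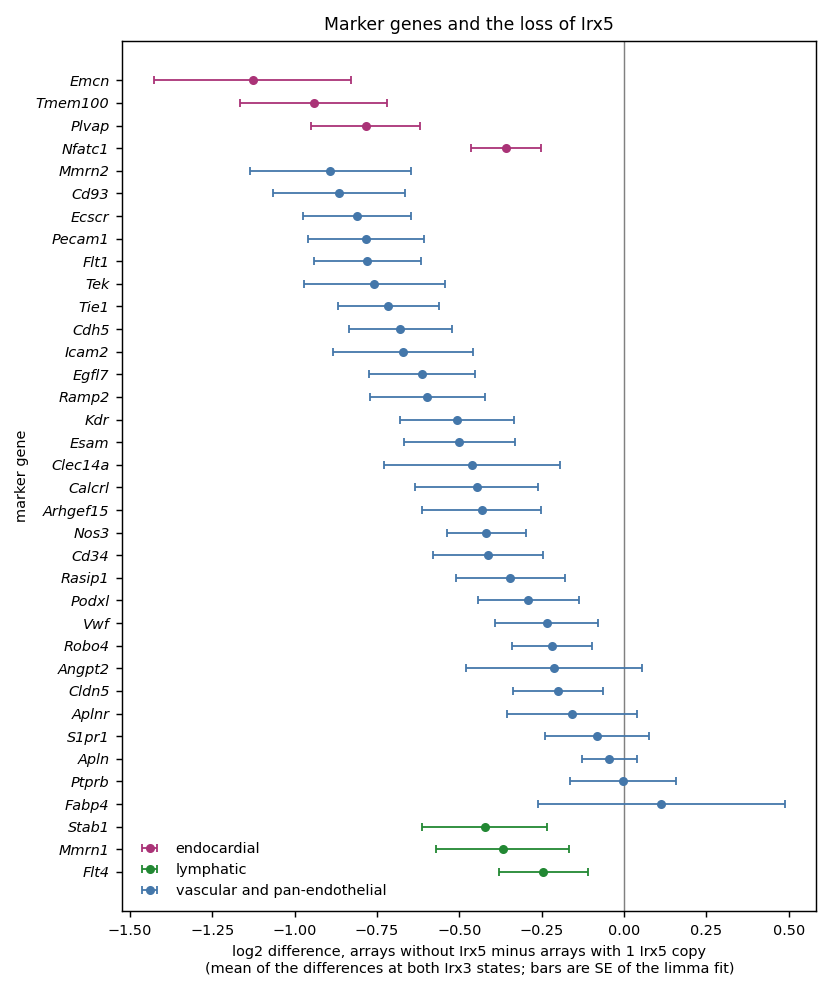
Points are log2 differences for the loss of Irx5, averaged over hearts with and without Irx3, and bars are standard errors of the limma fit, for each of the 36 markers grouped by class. All 4 endocardial markers lie left of 0, from -1.13 for Emcn to -0.36 for Nfatc1, and Ptprb, Apln, S1pr1 and Fabp4 lie near 0.

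The 4 endocardial markers had a median difference of -0.86 for the loss of Irx5. All 4 were lower at an unadjusted p under 0.05, against 7.03% of all genes. The median was -1.12 in Irx5-/- hearts against the reference and -0.79 in double mutants. Vascular markers had medians of -0.45, -0.48 and -0.63 in the same order, and lymphatic markers -0.37, -0.55 and -0.39. The difference between classes was not tested.

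Emcn encodes endomucin, a sialomucin of endocardium and venous endothelium. Its log2 intensity was 11.56, 12.05 and 11.55 in Irx5+/- arrays, 11.84, 11.28, 11.30 and 11.80 in Irx3-/-;Irx5+/- arrays, 9.57, 10.97 and 10.76 in Irx5-/- arrays and 11.29, 11.38, 9.51 and 10.17 in double mutants. All Irx5-/- and double mutant arrays lay below the reference arrays, and double mutant replicates 1 and 2 lay above replicates 3 and 4 by over 1 unit. The averaged difference was -1.13 ± 0.30 (SE), a fold of 2.19 lower, with adjusted p = 0.148.

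Plvap encodes the diaphragm protein of fenestrated and endocardial endothelium. It lay at 10.30, 10.43 and 10.05 in Irx5+/-, 10.30, 10.03, 10.06 and 10.14 in Irx3-/-;Irx5+/-, 8.87, 9.67 and 9.34 in Irx5-/- and 9.86, 9.94, 9.46 and 8.87 in double mutant arrays. Every array without Irx5 lay below every array with it, and the averaged difference was -0.79 ± 0.17 (SE, adjusted p = 0.102).

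Tmem100 is a membrane protein gene downstream of ALK1 signalling in the endothelium. Its values were 8.86, 9.19 and 8.49 in Irx5+/-, 8.73, 8.38, 8.29 and 9.05 in Irx3-/-;Irx5+/-, 6.99, 7.77 and 7.99 in Irx5-/- and 7.597, 8.74, 8.17 and 7.47 in double mutant arrays. The Irx5-/- arrays lay below all arrays with Irx5, while Irx3-/-;Irx5-/- replicate 2 reached 8.74, inside the range of the reference. The averaged difference was -0.94 ± 0.22 (SE, adjusted p = 0.117).

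Nfatc1 encodes the transcription factor that marks the endocardium and is needed for valve formation. It lay at 9.59, 9.44 and 9.26 in Irx5+/-, 8.90, 9.18, 8.98 and 9.49 in Irx3-/-;Irx5+/-, 9.17, 8.93 and 8.80 in Irx5-/- and 8.91, 9.09, 8.88 and 8.66 in double mutant arrays. Here the Irx3-/-;Irx5+/- arrays overlapped both the reference and the arrays without Irx5. The averaged difference was -0.36 ± 0.11 (SE, adjusted p = 0.173), and -0.30 without Irx3-/-;Irx5+/- replicate 4, and it was the smallest of the 4 endocardial differences.

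**Figure D3:**
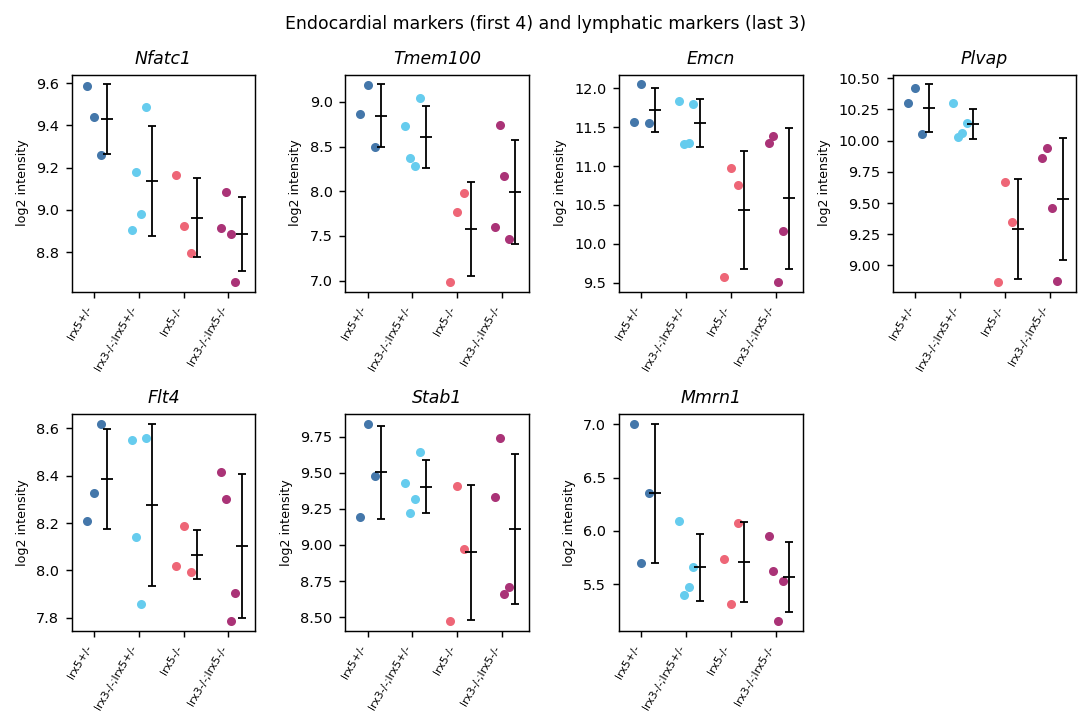
Points are the log2 intensity of each array by group for the 4 endocardial markers (Nfatc1, Tmem100, Emcn, Plvap) and the 3 lymphatic markers (Flt4, Stab1, Mmrn1), with the group mean and SD as a line and bar, on axes of their own that do not start at 0. The endocardial markers lie lower in both groups without Irx5, and the lymphatic markers overlap between groups except that the Irx5-/- arrays of Flt4 lie below its Irx5+/- arrays.

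Junction and surface proteins formed the group of 12 members with a median of -0.68 for the loss of Irx5. All 12 lay below 0 and 9 were lower at an unadjusted p under 0.05, against 7.03% of all genes. Ecscr, which encodes a surface protein of endothelial cells, lay at 10.55, 10.79 and 10.43 in Irx5+/-, 10.61, 10.51, 10.50 and 10.61 in Irx3-/-;Irx5+/-, 9.67, 9.97 and 10.10 in Irx5-/- and 9.85, 10.25, 8.94 and 9.39 in double mutant arrays. No array without Irx5 reached an array with it, and the averaged difference of -0.81 ± 0.16 (SE) had the smallest adjusted p of the 36 markers, 0.0924.

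Pecam1, the gene for the junction protein CD31, lay at 10.75, 11.16 and 10.90 in Irx5+/-, 10.88, 10.67, 10.51 and 10.98 in Irx3-/-;Irx5+/-, 10.11, 10.27 and 10.21 in Irx5-/- and 10.08, 10.69, 9.28 and 9.68 in double mutant arrays. The 3 Irx5-/- arrays were close together and below all arrays with Irx5, whereas the double mutants ran from 9.28 to 10.69. The averaged difference was -0.79 ± 0.18 (SE, adjusted p = 0.111). Without Irx3-/-;Irx5-/- replicate 2, Pecam1 and Ecscr passed the threshold, at -0.91 ± 0.13 and -0.92 ± 0.13 (SE, adjusted p = 0.0406 for each).

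Cdh5 encodes VE-cadherin, the cadherin of endothelial junctions. It lay at 11.74, 12.01 and 11.75 in Irx5+/-, 11.88, 11.52, 11.66 and 12.08 in Irx3-/-;Irx5+/-, 10.67, 11.34 and 11.17 in Irx5-/- and 11.46, 11.65, 10.78 and 10.92 in double mutant arrays. The Irx5-/- arrays and all double mutants lay below the reference arrays, with Irx3-/-;Irx5-/- replicate 2 inside the range of Irx3-/-;Irx5+/-. The averaged difference was -0.68 ± 0.16 (SE, adjusted p = 0.114).

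Cd93, a C-type lectin receptor gene of endothelial cells, lay at 12.06, 12.11 and 11.87 in Irx5+/-, 11.90, 11.67, 11.68 and 12.16 in Irx3-/-;Irx5+/-, 10.50, 11.45 and 11.34 in Irx5-/- and 11.39, 11.62, 10.31 and 10.84 in double mutant arrays. The groups with and without Irx5 did not overlap, and the averaged difference was -0.87 ± 0.20 (SE, adjusted p = 0.117). Mmrn2, which encodes a matrix ligand of the CD93 protein, had an averaged difference of -0.89 ± 0.25 (SE, adjusted p = 0.151). Clec14a, another lectin receptor gene that binds the same ligand, lay at -0.46 ± 0.27 (SE, adjusted p = 0.406), with double mutants spread from 7.71 to 9.52.

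Among the other junction and surface genes, the adhesion genes Icam2 and Esam lay at -0.67 ± 0.21 and -0.50 ± 0.17 (SE). Cldn5, for the tight junction protein claudin 5, and Robo4, an endothelial Roundabout receptor gene, lay at -0.20 ± 0.14 and -0.22 ± 0.12, with adjusted p = 0.473 and 0.395. Without Irx5+/- replicate 2 they were -0.07 and -0.12.

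The VEGF and angiopoietin genes were 7, and their median averaged difference was -0.51. At an unadjusted p under 0.05, 4 of the 7 were lower, against 7.03% of all genes. Flt1, for VEGF receptor 1, lay at 10.27, 10.64 and 10.55 in Irx5+/-, 10.26, 9.93, 10.25 and 10.85 in Irx3-/-;Irx5+/-, 9.25, 9.86 and 9.62 in Irx5-/- and 9.84, 10.11, 9.40 and 9.33 in double mutant arrays. All 7 arrays without Irx5 lay below the 3 reference arrays, and Irx3-/-;Irx5+/- replicate 2 was the lowest array with Irx5. The averaged difference was -0.78 ± 0.16 (SE, adjusted p = 0.099). Kdr, for VEGF receptor 2, lay at -0.51 ± 0.17 (SE, adjusted p = 0.212), where Irx3-/-;Irx5-/- replicate 2, at 10.45, was within the reference range.

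Tie1 encodes a receptor that pairs with the angiopoietin receptor Tek. Tie1 lay at 10.21, 10.57 and 10.29 in Irx5+/-, 10.48, 10.05, 10.28 and 10.64 in Irx3-/-;Irx5+/-, 9.41, 9.74 and 9.53 in Irx5-/- and 9.97, 10.26, 9.25 and 9.43 in double mutant arrays. The Irx5-/- arrays were below all arrays with Irx5, and Irx3-/-;Irx5-/- replicate 2, at 10.26, stood at the low end of the reference. The averaged differences were -0.72 ± 0.15 for Tie1 (SE, adjusted p = 0.102) and -0.76 ± 0.21 for Tek (SE, adjusted p = 0.162). Ptprb, the gene for the phosphatase VE-PTP that acts on Tek and VE-cadherin, lay at -0.00 ± 0.16 (SE, adjusted p = 0.997), and its sign turned in 8 of the alternatives.

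Sialomucins other than Emcn were Cd34 and Podxl, which coat the luminal surface, at averaged differences of -0.41 ± 0.17 and -0.29 ± 0.15 (SE), and Cd34 was at -0.24 without Irx5-/- replicate 2. The group of peptide and lipid signalling held the adrenomedullin receptor pair Calcrl and Ramp2, the apelin receptor Aplnr with its ligand Apln, and the sphingosine 1-phosphate receptor S1pr1. Calcrl and Ramp2 lay at -0.45 ± 0.19 and -0.60 ± 0.18 (SE). They were the 2 of these 5 that were lower at an unadjusted p under 0.05, against 7.03% of all genes. Aplnr, Apln and S1pr1 lay at -0.16 ± 0.20, -0.05 ± 0.08 and -0.08 ± 0.16, within 1 SE of 0. Without single arrays Calcrl was at -0.30 (Irx3-/-;Irx5-/- replicate 3) and Aplnr at -0.03 (Irx5+/- replicate 1).

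Among the intracellular and secreted regulators, Egfl7 lay at -0.61 ± 0.16 (SE, adjusted p = 0.146). Nos3, for endothelial nitric oxide synthase, lay at -0.42 ± 0.12 (SE, adjusted p = 0.165), and all its arrays without Irx5 were below all with it. Arhgef15 and Rasip1 lay at -0.43 ± 0.18 and -0.35 ± 0.17. Vwf, for the clotting protein von Willebrand factor, lay at -0.24 ± 0.16, or -0.14 without Irx5-/- replicate 1, and Fabp4, a fatty acid binding protein gene, had the widest error of the 36.

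Of the 3 lymphatic markers none was lower at an unadjusted p in Irx5-/- hearts, and 1 was in double mutants (Mmrn1, which lay under the receptor level) and 1 in the averaged comparison (Stab1). Over all genes 4.66%, 5.56% and 7.03% were lower in these comparisons. Flt4, for VEGF receptor 3, lay at 8.21, 8.33 and 8.62 in Irx5+/-, 8.55, 8.14, 7.86 and 8.56 in Irx3-/-;Irx5+/-, 8.02, 8.19 and 7.995 in Irx5-/- and 8.42, 8.30, 7.79 and 7.91 in double mutant arrays. Its 3 Irx5-/- arrays lay below the reference arrays and its double mutants overlapped them, with an averaged difference of -0.25 ± 0.14 (SE, adjusted p = 0.391). At this stage VEGF receptor 3 is also made by blood vascular endothelium.

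Stab1 encodes a scavenger receptor of sinusoidal and lymphatic endothelium and of some macrophages. It lay at 9.19, 9.84 and 9.48 in Irx5+/-, 9.43, 9.22, 9.32 and 9.65 in Irx3-/-;Irx5+/-, 8.47, 9.41 and 8.97 in Irx5-/- and 9.33, 9.74, 8.66 and 8.71 in double mutant arrays. Groups overlapped, and the averaged difference was -0.42 ± 0.19 (SE, adjusted p = 0.312).

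Mmrn1 encodes the matrix protein multimerin 1 of lymphatic endothelium and platelets. It lay at 7.01, 5.70 and 6.35 in Irx5+/-, 6.10, 5.40, 5.47 and 5.66 in Irx3-/-;Irx5+/-, 5.74, 5.32 and 6.07 in Irx5-/- and 5.95, 5.62, 5.15 and 5.53 in double mutant arrays. Irx5+/- replicate 1, at 7.01, was the highest of all arrays, and every group overlapped the reference. Its group means of 5.56 to 6.35 were all under the receptor level of 7.52, so its RNA could not be told from background on these arrays.

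The loss of Irx3 gave median marker differences nearer to 0, and the difference between the losses of Irx3 and Irx5 was not tested. With 1 Irx5 copy (Irx3-/-;Irx5+/- against Irx5+/-) the median marker difference was -0.12, with 30 of 36 below 0, and 0 markers and 0% of all genes were called. The median was -0.17 without Irx3-/-;Irx5+/- replicate 4 and 0.002 without Irx5+/- replicate 2. With no Irx5 (double mutants against Irx5-/-) it was -0.05, with 21 below 0, and again 0 markers and 0% of all genes were called, and without Irx3-/-;Irx5-/- replicate 3 it was 0.13. Averaged over both Irx5 states the median was -0.06, with 0 markers and 0% of all genes called. For the interaction, the loss of Irx3 in Irx5-/- hearts minus that in Irx5+/- hearts, the median was 0.11, with 17 markers below 0, and 0 markers and 0% of all genes were called.

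Angpt2, Cd34 and Aplnr had a pattern of their own and were singled out after their values were seen. Angpt2 encodes angiopoietin 2, a context-dependent ligand of Tek made by endothelial cells. It lay at 9.74, 9.29 and 8.88 in Irx5+/-, 8.34, 9.16, 9.86 and 8.35 in Irx3-/-;Irx5+/-, 10.38, 8.96 and 9.87 in Irx5-/- and 7.98, 8.14, 7.78 and 8.36 in double mutant arrays. The 4 double mutants lay below all arrays with Irx3, and 2 of the 3 Irx5-/- arrays were the highest of the 14.

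The Angpt2 difference was -1.67 ± 0.38 (SE) for double mutants against Irx5-/-, -1.24 ± 0.38 against Irx5+/- and -0.86 ± 0.35 against Irx3-/-;Irx5+/-, with adjusted p = 0.906, 0.192 and 0.612. Irx5-/- against Irx5+/- stood at 0.43 ± 0.40 (SE), and the interaction at -1.29 ± 0.53 (SE, adjusted p = 1). None of these passed the threshold. Single arrays moved them, since Irx5-/- against Irx5+/- was 0.11 without Irx5-/- replicate 1 and 0.82 without replicate 2, and double mutants against Irx3-/-;Irx5+/- was -0.55 without Irx3-/-;Irx5+/- replicate 3.

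Cd34 lay at 11.50, 11.69 and 11.64 in Irx5+/-, 10.93, 10.87, 11.24 and 10.95 in Irx3-/-;Irx5+/-, 11.36, 10.54 and 11.79 in Irx5-/- and 10.38, 10.98, 10.35 and 10.49 in double mutant arrays. All 8 arrays without Irx3 were below the 3 reference arrays, while the Irx5-/- arrays spread from 10.54 to 11.79. The averaged Irx3 difference was -0.65 ± 0.17 (SE, adjusted p = 1), and double mutants against Irx5+/- stood at -1.06 ± 0.24 (SE, adjusted p = 0.122). Without Irx5-/- replicate 2, an array of neither group, the difference stayed at -1.06 while the SE was 0.16 and the adjusted p 0.0323 in limma.

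Aplnr lay at -0.50 ± 0.20 (SE, adjusted p = 1) for the averaged loss of Irx3 and at -0.64 ± 0.28 (SE) for double mutants against Irx5-/-. Its ligand gene Apln lay at -0.06 ± 0.08 for the averaged loss of Irx3.

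**Figure D4:**
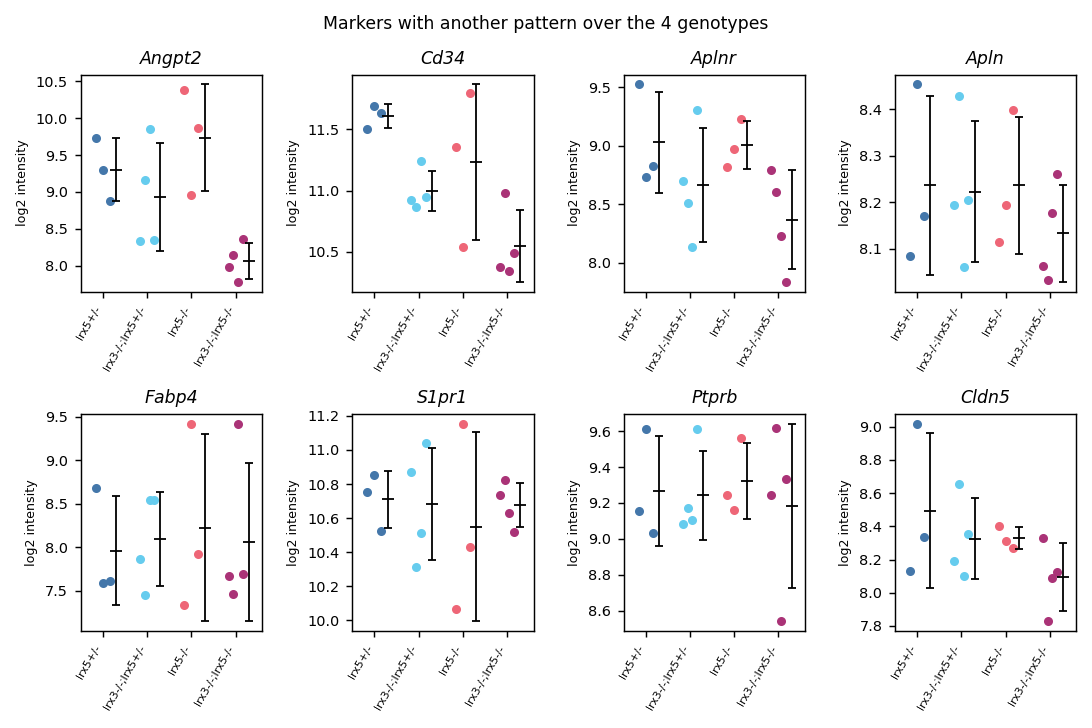
Points are the log2 intensity of each array by group, with group mean and SD, for 8 markers whose group pattern differed from most of the list (Angpt2, Cd34, Aplnr, Apln, Fabp4, S1pr1, Ptprb, Cldn5), on axes that do not start at 0. Angpt2 runs from 7.78 to 8.36 in double mutants and from 8.96 to 10.38 in Irx5-/- arrays, and Fabp4 has 1 high array in each of these groups.

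Endothelial genes outside the 36 also lay mostly below 0 for the loss of Irx5. They were measured on the same arrays and listed with earlier results of these data known, so they are not independent of the markers. Of 22 other endocardial and endothelial genes, 22 lay below 0 in Irx5-/- hearts, in double mutants and in the averaged comparison, at medians of -0.40, -0.42 and -0.31. At an unadjusted p under 0.05, 14, 13 and 16 of the 22 were lower, against 4.66%, 5.56% and 7.03% of all genes, and none was called. In double mutants against Irx3-/-;Irx5+/- the median was -0.28, with 20 below 0 and 2 above, and 9 were lower against 3.61% of all genes. Npr3, the natriuretic peptide clearance receptor gene of endocardium, lay at -0.98 ± 0.19 (SE), the SoxF factor gene Sox7 at -0.88 ± 0.18 and the ETS factor gene Ets1 at -0.42 ± 0.09 in the averaged comparison, with adjusted p = 0.0924, 0.0952 and 0.0952.

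Ligands and partners of the listed receptors had a median of -0.03 over 28 genes, with 6 lower and 2 higher at an unadjusted p under 0.05 and none called, where 7.03% of all genes were lower and 8.32% higher. Of these 28 genes, 4 (Nrp1, Heg1, Acvrl1 and Eng) are also among the 22 above. Cav1, the gene for the caveolae protein caveolin 1, lay at -0.71 ± 0.13 (SE), the TGF-beta co-receptor gene Eng at -0.70 ± 0.18 and Unc5b, a netrin receptor gene that binds Robo4 protein, at 0.38 ± 0.11. Of 6 other lymphatic genes 3 lay below 0 and 3 above, with Pdpn, for podoplanin, at 0.69 ± 0.16 (SE, adjusted p = 0.117) and Foxc2 at -0.50 ± 0.19 (SE, adjusted p = 0.253). Podoplanin is also made outside the lymphatics, in the epicardium and the sinus region.

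**Figure D5:**
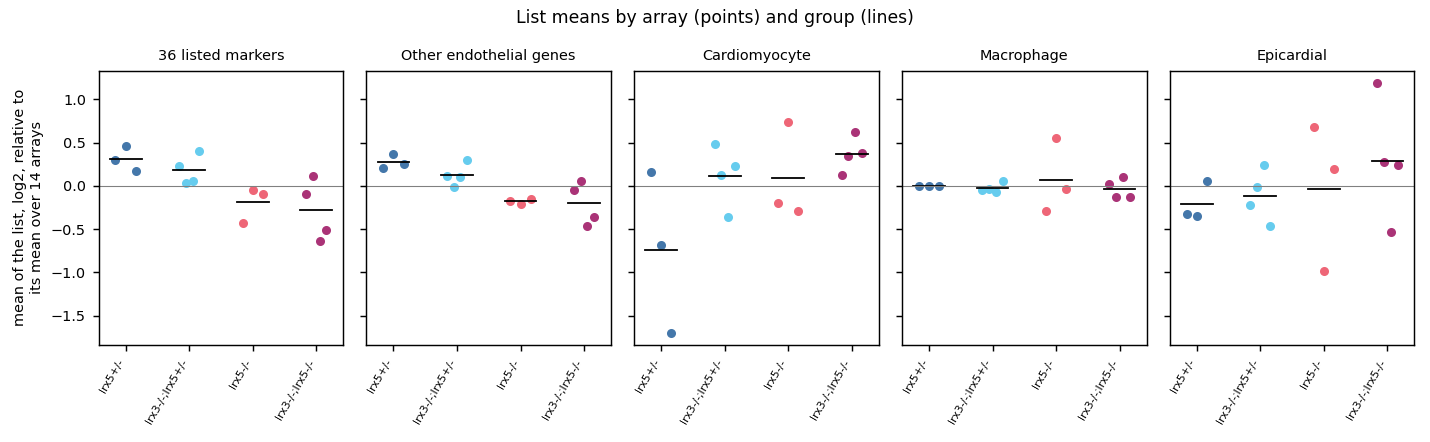
Points are the mean of each gene list in each array, on the log2 scale relative to the list's mean over the 14 arrays, lines are group means, and panels are the 36 markers, other endothelial genes, cardiomyocyte, macrophage and epicardial genes. The marker mean runs from 0.18 to 0.47 in Irx5+/- arrays and from -0.64 to 0.12 in double mutants, and the cardiomyocyte mean of Irx5+/- replicate 3 is -1.69.

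Cardiomyocyte genes had higher group means in the other 3 groups than in Irx5+/-. All 18 lay above 0 for the averaged loss of Irx5, at a median of 0.56 with none called. All 18 also lay above 0 for the averaged loss of Irx3, at 0.61, and in Irx3-/-;Irx5+/- against Irx5+/-, at 0.95. In the comparisons without the Irx5+/- arrays the medians were smaller. They were 0.215 for double mutants against Irx3-/-;Irx5+/- and 0.267 against Irx5-/-, with all 18 above 0. In these 2 comparisons 0 of 18 were higher at an unadjusted p under 0.05 in limma, against 809 and 299 of all 19931 genes. Their per-array mean ran from -1.69 to 0.16 in Irx5+/-, from -0.36 to 0.48 in Irx3-/-;Irx5+/-, from -0.28 to 0.74 in Irx5-/- and from 0.13 to 0.62 in double mutant arrays. Irx5+/- replicates 2 and 3 were the lowest arrays, at -0.68 and -1.69. The marker mean ran from 0.18 to 0.47, from 0.04 to 0.40, from -0.42 to -0.04 and from -0.64 to 0.12 in the same order of groups. With the cardiomyocyte mean as a term in the fit, the median marker difference for the averaged loss of Irx5 was -0.48. That term itself differed between groups, with group means from -0.74 in Irx5+/- to 0.37 in double mutants. The part of muscle content in the marker differences was not tested.

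Macrophage genes had array means from -0.01 to 0.00 in Irx5+/-, from -0.07 to 0.06 in Irx3-/-;Irx5+/-, from -0.29 to 0.55 in Irx5-/- and from -0.13 to 0.11 in double mutants. The epicardial list, all 9 of whose genes lay above the receptor level, ran from -0.35 to 0.05 in Irx5+/-, from -0.47 to 0.24 in Irx3-/-;Irx5+/-, from -0.98 to 0.68 in Irx5-/- and from -0.53 to 1.19 in double mutants. Both lists spread more widely in Irx5-/- arrays than in Irx5+/- arrays. The part of these cell types in the marker differences was not tested.

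The lowest and highest values of many markers fell on the same arrays. These counts are over all 14 arrays and include the differences between groups, and joint movement of the markers within groups was not tested. Irx3-/-;Irx5-/- replicate 3 was the lowest of 14 arrays for 20 markers and Irx5-/- replicate 1 for 11, and Irx5+/- replicate 2 was the highest for 14 and Irx3-/-;Irx5+/- replicate 4 for 9. In group means, 28 of 36 markers had both groups without Irx5 below both groups with it, the double mutant mean was lowest for 20 and the Irx5-/- mean for 15. The median residual SD was 0.35 for the markers and 0.19 for all genes on the log2 scale, so that the arrays of 1 group differed more in these genes than in most.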

How the data were processed

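Per the labels' protocols, PicoPure columns were used to isolate total heart RNA, of which 1 ng went into NuGEN's WT-Ovation FFPE V2 amplification and Encore Biotin labelling. The authors deposited log2 intensities for each probe set, made by RMA in affy, then applied a floor of 3 to group means and fitted limma models, per the file headers. No version or annotation build is given in the sources used here. Array intensities have no read depth, and precision is limited by how many arrays there are.

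Values were used as deposited. Of 28763 probe sets, 21776 have 1 gene symbol in the platform table, 1592 several and 5395 none. Of the first, 21685 matched the reference gene table by gene ID and 91 did not. For 998 genes with more than 1 probe set the brightest on average was taken, giving 19931 genes. Promoter windows are RefSeq's (GRCm38.p6).

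The main test was limma (3.58.1, R 4.3.3) fitted to all 14 arrays with 1 mean for each group, 10 residual and 3.50 prior degrees of freedom, 2-sided, with Benjamini-Hochberg adjustment over all 19931 genes. A gene was called at an adjusted p under 0.05. Groups were taken from the genotype labels. The procedure was tested on simulated data.

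The members, their classes and the gene lists were chosen with earlier results of these data known. Values per array are given for the 8 markers with the smallest p for the averaged loss of Irx5 and for every endocardial and lymphatic marker, and other lists name at most 3 genes by smallest p. Angpt2, Cd34, Aplnr and the Irx5 signal by array were added after their values were seen. Alternatives left out each array in turn, used the replicate number as a block, only the groups compared, all probe sets of a gene, a filter at the receptor level, median centring, an intensity trend with a robust prior, array weights, or a cardiomyocyte term.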

Additional observations from a re-analysis of the deposited data

Results flagged for a closer look

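Among the 4-array groups, 72 combinations of marker and group were examined for a stray array. The 3 that were found are about as many as chance gives, at 1 in 20. Icam2 in Irx3-/-;Irx5+/- replicate 3 was 9.008, far below the other 3 arrays of its group at 9.705 to 9.841. Fabp4 in Irx3-/-;Irx5-/- replicate 3 was 9.419, far above the others at 7.464 to 7.696. Ptprb in Irx3-/-;Irx5+/- replicate 4, the array whose description names another genotype, was 9.61 against 9.085 to 9.173 in the others.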

How the results depend on the processing

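The median marker difference moved by less than the spread between replicates (0.24) in every alternative run, for all 8 comparisons. For the 4 comparisons of Irx5 it stayed below 0, from -0.79 to -0.33, and for the 3 comparisons of Irx3 and the interaction it turned sign when some arrays were left out, within -0.19 to 0.21, and for double mutants against Irx5-/- also with array weights, at 0.04. No marker was called in any alternative except when single arrays were left out. Then the number of markers called was 0 to 1 in double mutants against Irx5+/- (Cd34 without Irx5-/- replicate 2, Pecam1 without Irx3-/-;Irx5-/- replicate 2) and 0 to 2 for the averaged loss of Irx5 (Pecam1 and Ecscr without Irx3-/-;Irx5-/- replicate 2). Irx5-/- replicate 2 belongs to neither group of the Cd34 comparison and enters it only through the shared estimate of the spread. The number of markers lower at an unadjusted p ran from 8 to 21 in Irx5-/-, 14 to 25 in double mutants, 9 to 24 for the last Irx5 copy and 19 to 25 for the averaged loss of Irx5 when arrays were left out.

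Over all genes, the calls in double mutants against Irx5+/- were 4, and 0 to 42 with arrays left out, 15 with only the groups compared, 7 with array weights, 2 with all probe sets averaged, and 0 with the cardiomyocyte term. Those for the averaged loss of Irx5 were 3, and 0 to 7 with arrays left out and 0 with the cardiomyocyte term. For the last Irx5 copy the 1 call became 0 with arrays left out, only the groups compared, all probe sets averaged, the background filter, median centring and the cardiomyocyte term. Irx5-/- against Irx5+/- gave 0 to 1 and double mutants against Irx5-/- 0 to 1 with arrays left out, and the latter gave 2 with an intensity trend. The causes were not tested.

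Signs turned only in 4 markers with differences near 0 for the averaged loss of Irx5. With arrays left out Apln ran from -0.086 to 0.009, S1pr1 from -0.234 to 0.038, Ptprb from -0.073 to 0.105 and Fabp4 from -0.184 to 0.335. Ptprb was 0.013 with median centring, 0.02 with array weights and 0.029 with the cardiomyocyte term, and Fabp4 -0.057 and -0.315 with the last 2.

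With the replicate number as a block (replicate block), 19, 22 and 24 markers were lower at an unadjusted p in Irx5-/-, double mutants and the averaged comparison. The main fit, whose shares over all genes are given above, had 19, 22 and 22. Calls over all genes were 0 in double mutants against Irx5+/-, 0 for the last Irx5 copy and 1 for the averaged loss of Irx5. Deviations of same-numbered arrays from their group means correlated at -0.18 to 0.19 (median -0.06, 19 pairs), against -0.35 to 0.30 for other pairs. No pairing by number was seen, although correlations over so few arrays cannot exclude one.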

Other observations

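The Irx5 signal and the mean of the 36 markers stood in the same order across the arrays of 3 groups, which was noticed after the values were seen and was not tested. In double mutants the Irx5 signal was 7.52, 8.04, 8.196 and 8.43 in replicates 3, 4, 1 and 2, and the marker mean, relative to its mean over the 14 arrays, was -0.64, -0.51, -0.09 and 0.12. In Irx5-/- arrays the signal was 7.86, 7.91 and 8.34 in replicates 1, 3 and 2 and the marker mean -0.42, -0.09 and -0.04. In Irx3-/-;Irx5+/- arrays the order was also shared, over a narrower range of Irx5 signal from 8.21 to 8.32, and in Irx5+/- arrays it was not. Across the within-group deviations of the 14 arrays, Irx5 correlated with the marker mean at r = 0.79, or 0.63 without the 2 arrays farthest from the median Irx5 signal. By this correlation it ranked 94 of 19895 genes outside the list, with other genes ranked above it. Over the 14 arrays with group differences included, r was 0.82. The labels do not say which part of Irx5 the arrays of Irx5-/- genotype lack, so the signal cannot be read as functional Irx5 RNA.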
